A study of Mus musculus with 11 samples.

Results

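The genes described here are the amino acid carriers of the solute carrier families SLC1, SLC3, SLC7, SLC36, SLC38 and SLC43, taken by gene name. The families were chosen with earlier results of these data known. The rule took 43 of the 24849 genes in the count table. A gene under 10 counts in every library was counted as not detected, which left 24 detected genes and 19 not detected. Slc7a6os shares the name pattern only and is no carrier, so 23 of the detected genes encode carriers or their heavy chains.

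The libraries, 4 labelled KO, 3 labelled WT and 4 labelled KI, were made from AML12, an established line of mouse hepatocytes. The KO cells are AML12 transfected with a CRISPR/Cas9 plasmid that cuts the fifth exon of Txndc5 together with a repair plasmid carrying puromycin resistance, and puromycin-resistant stable cells were kept. Their label calls the genotype a knockdown. The KI cells are labelled TXNDC5 Knockin, which the series' design text describes as overexpression from the ROSA26 locus, and WT is unedited AML12. The KO cells were selected with puromycin and WT was not described as selected, so editing and selection cannot be told apart. Per the described culture, AML12 cells were grown in serum with non-essential amino acids, insulin, transferrin, selenium and dexamethasone. Nothing states that the libraries of a group came from separate cultures, so p-values measure the spread between these libraries, which may be technical. One WT library carries the label 5-6.

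Txndc5, an endoplasmic reticulum protein of the disulfide isomerase family, stood at 8.50 to 12.9 CPM (counts scaled to library size) in the KO, 138 to 147 in the WT and 158 to 179.5 in the KI libraries. On the log2 scale KO against WT gave -3.81 (adjusted p = 4.09e-08). KI against WT gave 0.24 (adjusted p = 0.136), which did not pass the test, so a higher Txndc5 mRNA level in the line labelled as a knock-in was not called. Libraries held 29840366 to 38422243 counts, and 1 newly assembled entry took 11.3% to 17.1% of the counts in WT against 4.32% to 9.12% in the edited lines. The hepatocyte list (8 of 9 markers above 0) summed to 8324 to 10297 CPM in KO, 5058 to 6867 in WT and 7217 to 8722 in KI, with Cyp2e1 at 0 in all libraries and Cps1 at most 4.23. Of 8 tested in KO against WT, 5 were called higher and 1 lower (edgeR, adjusted p under 0.05), beside 26.7% and 28.4% of all genes. Alb was at 3589 to 4767 CPM in KO, 373 to 739 in WT and 160 to 302 in KI. In the same order Hnf4a was at 266 to 293, 82.0 to 135 and 121 to 139, and Apob at 562 to 709, 357 to 459 and 819 to 1021. Apoa1 was at 16.7 to 28.2, 1.25 to 1.98 and 0.392 to 1.13. Not all members moved that way: Ttr was at 393 to 533, 613 to 1042 and 494 to 733, and Krt8 at 2378 to 3110, 2427 to 3357 and 3866 to 4701. The biliary list (4 of 5 above 0, Epcam at 0) summed to 1339 to 1504 CPM in KO, 2974 to 4379 in WT and 2604 to 3083 in KI. Of 4 biliary markers tested in KO against WT, 1 was called higher and 3 lower, beside the same shares of all genes. Spp1 was at 211 to 282 CPM in KO, 1945 to 3288 in WT and 1851 to 2114 in KI. Krt7 was at 15.1 to 18.2, 166 to 188 and 107 to 131, and Krt19, the gene called higher, at 1035 to 1175, 653 to 862 and 565 to 817. The macrophage list (3 of 4 above 0, Adgre1 at 0) summed to 1.32 to 2.21 CPM in KO, 6.73 to 9.20 in WT and 2.52 to 5.66 in KI, and the mesenchymal and endothelial lists stayed at or under 1.04 CPM. The part of these shifts in the carrier results was not tested.

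Amino acids cross membranes through carriers that differ in what they take and in what drives them. SLC1 and SLC38 carriers mostly use the sodium gradient, some SLC36 carriers use protons, and SLC43 carriers let large neutral amino acids pass down their gradient. The SLC7 family has cationic carriers for arginine, lysine and ornithine, and light chains that reach the membrane only when joined by a disulfide bridge to a heavy chain of the SLC3 family. In liver these carriers feed protein synthesis, the urea cycle, gluconeogenesis and glutathione synthesis, and several are known targets of ATF4, the transcription factor of the amino acid response.

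KO cells had more mRNA of a set of exchangers for neutral amino acids (Slc7a5, Slc1a4, Slc1a5) and of Slc43a2, and less of the heavy chain Slc3a1, than both other lines. KI cells had the least Slc7a2 and Slc36a4 and were the only libraries with reads of Slc7a8. In KO against WT, 15 of the 22 carriers and carrier-named genes tested were called (68.2%), beside 55.1% of all 13359 genes tested. Called means an adjusted p under 0.05 in edgeR's quasi-likelihood test over all genes. Of the 15, 8 were higher and 7 lower in KO, beside 26.7% and 28.4% of all genes. Scaled by library totals in place of TMM, which moves the median of all genes from -0.032 to 0.38, 14 were called, 11 higher and 3 lower. In 15 of the 22 the KO and WT libraries did not overlap, beside 55.1% of all genes.

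In KI against WT, 12 of 24 were called (50%), 7 higher and 5 lower in KI, beside 42.3% of all 13534 genes tested, 21.2% higher and 21.0% lower. The groups did not overlap in 17 of the 24, beside 44.6% of all genes. In KO against KI, 17 of 24 were called (70.8%), 7 higher and 10 lower in KO, beside 54.0% of all 13269 genes tested, 27.0% higher and 27.0% lower. There 18 of 24 did not overlap, beside 48.8%. Slc7a8 and Slc7a3 were under 10 counts in every KO and WT library and were tested through their KI counts. Without them 11 of 22 were called in KI against WT, 6 higher and 5 lower, and 15 of 22 in KO against KI, 7 higher and 8 lower. Both are still among the genes counted above as not overlapping in KI against WT and in KO against KI. That outcome was nearly fixed by the way they entered the test. The medians of KI against WT and KO against KI given next include them too. Median log2 fold changes of the tested members were -0.0065, -0.089 and -0.21 in the order of these comparisons, beside -0.032, -0.017 and 0.00075 over all genes. Both comparisons with WT share the WT libraries, and KO against KI is the test of the difference between the edited lines.

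Summed over the 24 detected genes, the level was nearly even, at 1045 to 1185 CPM in KO, 1021 to 1081 in WT and 1034 to 1089 in KI. The differences were between genes inside this sum. Bulk RNA cannot tell fewer cells that use a gene from less of its RNA per cell.

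**Figure D1:**
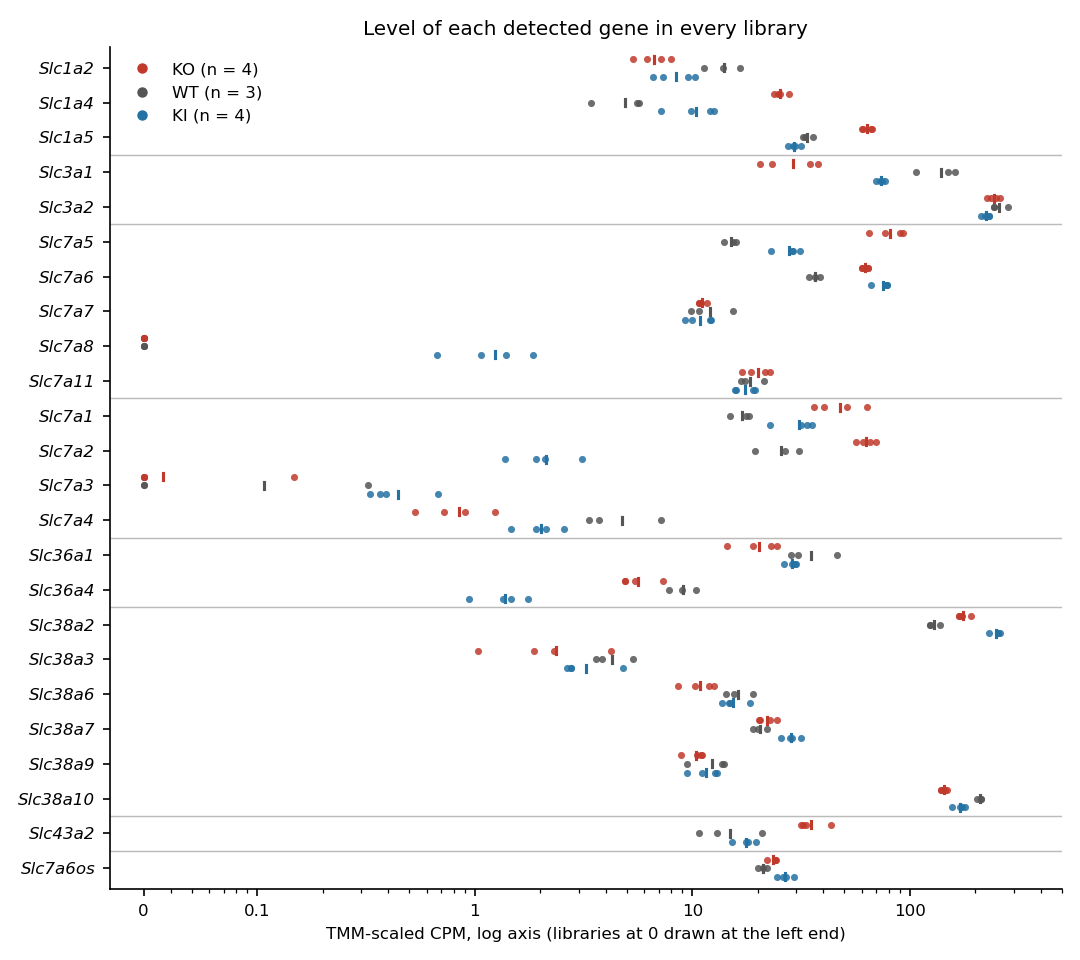
TMM-scaled CPM (log axis) of the 24 detected genes, one point per library and a short bar at the group mean, in KO (n = 4), WT (n = 3) and KI (n = 4), with gene families parted by lines and 0 drawn at the left end. Slc7a5 and Slc1a4 are highest in KO, Slc7a2 and Slc36a4 lowest in KI, and Slc7a8 is above 0 in the KI libraries only.

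Levels below are TMM-scaled CPM, a scale meant to remove depth and shifts in overall composition. It assumes that most genes do not change, while 55.1% of all genes were called in KO against WT. Library values follow the order KO 5 to 8, WT 5-6, 7 and 8, and KI 5 to 8. Values with ± are means and SD over libraries, and log2 fold changes (KO or KI minus the second group named) carry their standard error. Gene positions are RefSeq on GRCm38.p6.

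The sodium-dependent exchangers of neutral amino acids rose in KO. Slc1a4 (chr11:20302180-20332713), which encodes ASCT1, a carrier of alanine, serine and cysteine, stood at 25.4, 23.8, 24.6 and 27.7 CPM in KO. It stood at 3.43, 5.57 and 5.70 in WT and at 9.85, 12.0, 12.5 and 7.21 in KI. The 3 lines did not overlap, and KO was highest and WT lowest. The log2 fold change was 2.33 ± 0.20 (adjusted p = 4.74e-06) in KO against WT, or 5.03-fold. In KI against WT it was 1.07 ± 0.25 (adjusted p = 0.00421) and in KO against KI 1.28 ± 0.15 (adjusted p = 5.47e-06).

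Slc1a5 (chr7:16781334-16798274), which encodes ASCT2, the exchanger known for glutamine uptake, was at 60.4, 66.6, 60.7 and 66.5 CPM in KO. In WT it was at 33.0, 32.4 and 35.9 and in KI at 27.6, 29.5, 31.7 and 29.0. KO stood apart from both lines at 1.85 times the WT and 2.16 times the KI level. The log2 fold changes were 0.89 ± 0.12 (adjusted p = 9.06e-05) and 1.11 ± 0.089 (adjusted p = 6.76e-08), while KI against WT was -0.20 ± 0.13 (adjusted p = 0.242) and was not called although the libraries did not overlap. The median log2 fold change of its chromosome 7 was 0.52 in KO against WT and 0.43 in KO against KI.

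Slc1a2 (chr2:102658239-102790784), which encodes the glutamate carrier EAAT2, moved the other way. Its level was 5.36, 6.16, 7.14 and 7.96 CPM in KO, 11.3, 13.9 and 16.6 in WT and 10.2, 7.36, 9.57 and 6.60 in KI. Every WT library was above every edited one, and the edited lines overlapped. The log2 fold changes against WT were -1.08 ± 0.19 (adjusted p = 0.000721) in KO and -0.72 ± 0.20 (adjusted p = 0.0122) in KI, and KO against KI was -0.34 ± 0.18 (adjusted p = 0.124), or -0.45 without KI 8 (adjusted p = 0.046). Scaled by library totals in place of TMM, the KI call was lost (-0.41, adjusted p = 0.197).

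Of the 2 heavy chains, Slc3a1 fell in both edited lines and Slc3a2 was not called. Slc3a2 (chr19:8706882-8723369), the CD98 heavy chain that pairs with most light chains, had the highest mean per kilobase of exon in KO and KI, and in WT it and Slc3a1 led within their spread. It stood at 226, 248, 236 and 260.2 CPM in KO, 244, 242 and 283 in WT and 213, 221, 230.3 and 230.1 in KI. It was called in no comparison, with log2 fold changes of -0.10 ± 0.12 (adjusted p = 0.502), -0.20 ± 0.13 (adjusted p = 0.233) and 0.12 ± 0.08 (adjusted p = 0.218) in KO against WT, KI against WT and KO against KI.

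Slc3a1 (chr17:85028347-85064241), the rBAT heavy chain of the cystine and dibasic amino acid carrier of kidney and gut, had its highest level in WT. It stood at 37.6, 20.5, 34.6 and 23.1 CPM in KO, 160.5, 149 and 106 in WT and 74.5, 70.1, 72.9 and 77.1 in KI. The lines did not overlap, in the order WT, KI, KO. The KO level was 4.85-fold below WT (-2.28 ± 0.22, adjusted p = 1.37e-05) and 2.54-fold below KI (-1.34 ± 0.16, adjusted p = 4.33e-06), and KI was 1.88-fold below WT (-0.91 ± 0.15, adjusted p = 0.000463). Slc7a9, the light chain known to pair with it, was not detected. Slc3a1 shares 601 exonic bases with Prepl on the opposite strand, which reached 3018 counts, and the described library preparation marks no strand, so reads there cannot be assigned to one gene. The same holds for genes that share exonic bases with opposite-strand genes missing from the counts. These are Slc43a2 (922 bases), Slc7a2 (635), Slc38a10 (367), Slc1a2 (189) and Slc38a9 (182).

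Of the light chains, Slc7a5 (chr8:121881146-121907686) changed most in KO. It encodes LAT1, which brings in leucine and other large neutral amino acids in exchange for glutamine. Its level was 65.0, 90.2, 76.6 and 93.0 CPM in KO, 15.9, 14.0 and 15.3 in WT and 31.2, 28.6, 29.0 and 22.9 in KI. The lines did not overlap, and the KO mean was 5.31 times WT and 2.91 times KI. The log2 fold changes were 2.41 ± 0.16 (adjusted p = 9.03e-07) in KO against WT, 1.54 ± 0.13 (adjusted p = 9.33e-08) in KO against KI and 0.89 ± 0.15 (adjusted p = 0.000645) in KI against WT.

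Slc7a6 (chr8:106168219-106198714) encodes y+LAT2, which exports arginine against neutral amino acids and sodium. It stood at 64.2, 60.4, 60.4 and 64.2 CPM in KO, 38.6, 36.7 and 34.3 in WT and 78.8, 78.5, 77.3 and 66.2 in KI. It rose in both edited lines against WT, by 0.75 ± 0.11 (adjusted p = 0.000243) in KO and 1.04 ± 0.13 (adjusted p = 7.36e-05) in KI on the log2 scale. KO was lower than KI at -0.27 ± 0.086 (adjusted p = 0.016), beside a median of its chromosome 8 of the same size (-0.27). That call was lost without KI 5 (-0.25, adjusted p = 0.0508) and with library totals (-0.21, adjusted p = 0.0798).

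Slc7a8 (chr14:54722215-54781886) encodes LAT2, a relative of LAT1. It had 0 counts in all 4 KO and all 3 WT libraries and 38, 67, 53 and 22 counts in the KI libraries, or 1.06, 1.85, 1.39 and 0.669 CPM. Against a floor of 3 counts per library, which covers counting error only, KI was at least 10.3-fold higher than WT and at least 15.0-fold higher than KO. It was tested only through the KI libraries, so no test is given for it. Even in KI its mean per kilobase, 0.248 CPM, was far under that of Slc7a5, 7.53 CPM.

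Slc7a11 (chr3:50364936-50499087) encodes xCT, which takes up cystine in exchange for glutamate and so supplies cysteine for glutathione. Its level was 17.0, 18.5, 21.5 and 22.9 CPM in KO, 17.4, 21.3 and 16.6 in WT and 19.0, 19.5, 15.8 and 15.7 in KI. The 3 lines overlapped, and no comparison was called, with 0.093 ± 0.16 (adjusted p = 0.644) in KO against WT, -0.077 ± 0.16 (adjusted p = 0.731) in KI against WT and 0.19 ± 0.13 (adjusted p = 0.211) in KO against KI. Scaled by library totals, KO against WT was called (0.51, adjusted p = 0.0304). Slc7a7, which encodes y+LAT1, was not called either, at 10.7 to 11.7 CPM in KO, 9.90 to 15.4 in WT and 9.23 to 12.2 in KI, and shares 232 exonic bases with Oxa1l on the opposite strand.

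Per kilobase of exon, the detected light chains together were at 36.1 to 44.3 CPM in KO, 16.6 to 17.5 in WT and 24.9 to 30.3 in KI. Slc7a5 made up 48.5% to 57.8% of this in KO, 22.7% to 25.3% in WT and 24.8% to 28.0% in KI. Slc7a6 made up 31.4% to 38.9% in KO, 43% to 49.8% in WT and 56.7% to 58.1% in KI. So Slc7a5 was the leading light chain in KO and Slc7a6 in WT and KI, while the Slc3a2 level of their heavy chain was 68.7 ± 4.18, 72.7 ± 6.61 and 63.4 ± 2.32 CPM per kilobase in KO, WT and KI.

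**Figure D2:**
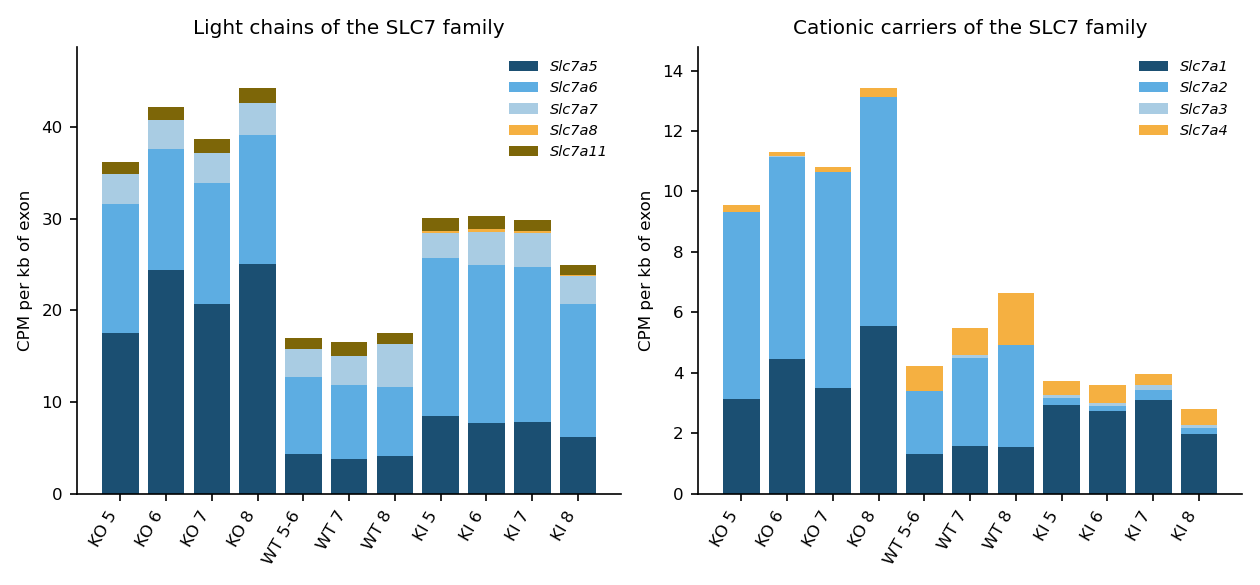
Stacked bars of CPM per kilobase of exon for the light chains (left) and cationic carriers (right) of SLC7 in each of the 11 libraries. Slc7a5 leads the light chains in KO and Slc7a6 in WT and KI, and Slc7a2 is 4.19% to 8.60% of the cationic carriers in KI against 50.2% to 66.1% in the other lines.

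Among the cationic carriers, Slc7a2 (chr8:40862341-40922070) differed most between the edited lines. It encodes CAT2, whose low-affinity form is the liver's own arginine carrier. It stood at 56.5, 61.1, 65.2 and 69.5 CPM in KO, 19.3, 26.8 and 30.9 in WT and 2.10, 1.38, 3.11 and 1.92 in KI. The lines did not overlap, in the order KO, WT, KI. It rose 2.42-fold in KO against WT, a log2 fold change of 1.27 ± 0.17 (adjusted p = 0.000105), and fell 11.7-fold in KI against WT, a log2 fold change of -3.55 ± 0.26 (adjusted p = 9.6e-07). The edited lines thus lay on opposite sides of WT, and KO was 28.9 times KI, with 4.85 ± 0.18 (adjusted p = 2.61e-11).

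Slc7a1 (chr5:148327410-148399904) encodes CAT1, the widely expressed high-affinity arginine carrier. Its level was 36.3, 51.2, 40.2 and 63.8 CPM in KO, 14.9, 18.1 and 17.7 in WT and 33.8, 31.6, 35.6 and 22.7 in KI. It rose in both edited lines, by 1.48 ± 0.20 (adjusted p = 0.000127) in KO and 0.87 ± 0.18 (adjusted p = 0.00208) in KI on the log2 scale against WT. KO was above KI by 0.63 ± 0.17 (adjusted p = 0.00539), with KO 5 at 36.3 CPM and KI 7 at 35.6 CPM as the nearest libraries.

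Slc7a4 (chr16:17572018-17576890), a relative of the CAT carriers without a settled substrate, fell in both edited lines. It stood at 0.897, 0.533, 0.720 and 1.24 CPM in KO, 3.34, 3.71 and 7.19 in WT and 1.90, 2.56, 1.46 and 2.13 in KI. The log2 fold changes were -2.41 ± 0.37 (adjusted p = 0.000272) in KO against WT, -1.22 ± 0.31 (adjusted p = 0.00779) in KI against WT and -1.18 ± 0.34 (adjusted p = 0.00913) in KO against KI, while its chromosome 16 had medians of 0.49, -0.033 and 0.51. On log2(CPM + 1) with limma the first was smaller, at -1.59, and remained called. Its exons share 554 bases with P2rx6 on the opposite strand, which reached 39 counts.

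Slc7a3 (chrX:101079146-101090452), which encodes CAT3, was near the detection limit. It had 5 counts in KO 6 and 0 in the other KO libraries, 8 counts in WT 7 and 0 in the other WT libraries, and 14, 12, 26 and 12 counts in KI. All KI libraries were above all others. Since only the KI counts brought it into the test, no fold or test is given for it, and KO against WT was not tested because of its low counts.

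Together the cationic carriers were at 9.54 to 13.4 CPM per kilobase in KO, 4.21 to 6.65 in WT and 2.79 to 3.96 in KI. Slc7a2 was the larger part in KO (56.6% to 66.1%) and in WT (50.2% to 53.5%). In KI, Slc7a1 took that place with 70.6% to 78.7%, and Slc7a2 held 4.19% to 8.60%.

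Both detected SLC36 carriers were lower in KO than in WT. Slc36a4 (chr9:15709738-15742388), which encodes PAT4, a high-affinity carrier of proline and tryptophan, stood at 4.88, 5.45, 4.89 and 7.34 CPM in KO, 7.80, 10.4 and 8.92 in WT and 1.34, 1.46, 0.941 and 1.76 in KI. The lines did not overlap, in the order WT, KO, KI. KI fell 6.34-fold against WT, a log2 fold change of -2.67 ± 0.25 (adjusted p = 6.99e-06), and KO was 4.01 times KI, with 2.00 ± 0.24 (adjusted p = 5.09e-06). The smaller KO against WT change, -0.69 ± 0.20 (adjusted p = 0.0136), was no longer called without WT 7 (-0.56, adjusted p = 0.0728) or with library totals (-0.28, adjusted p = 0.315). KI against WT was -2.06 on log2(CPM + 1) with limma, and remained called.

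Slc36a1, which encodes the lysosomal carrier PAT1, was at 14.5 to 24.5 CPM in KO, 28.4 to 46.4 in WT and 26.5 to 30.1 in KI. It was lower in KO than in WT at -0.81 ± 0.21 (adjusted p = 0.0073) on the log2 scale and lower in KO than in KI at -0.50 ± 0.14 (adjusted p = 0.00777), while KI against WT was -0.29 ± 0.17 (adjusted p = 0.191). The median of its chromosome 11 was -0.34, -0.27 and -0.087 in these comparisons. The KO call against WT was lost with library totals (-0.42, adjusted p = 0.195).

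Of the sodium-coupled neutral carriers, Slc38a2 (chr15:96687392-96699728) stood at 28.2 ± 1.52 CPM per kilobase of exon in KI, within the spread of Slc38a10 (26.4 ± 1.46). It encodes SNAT2, the system A carrier of alanine and glutamine that is known to be induced when amino acids run short. Its level was 169, 169, 174 and 190.1 CPM in KO, 124, 124 and 138 in WT and 253, 255, 260.4 and 230.0 in KI. The lines did not overlap, in the order KI, KO, WT. KI rose by 0.96 ± 0.13 (adjusted p = 0.000114) and KO by 0.43 ± 0.11 (adjusted p = 0.00751) on the log2 scale against WT, and KO against KI was -0.50 ± 0.081 (adjusted p = 9.66e-05).

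The other SLC38 genes differed less. Slc38a10 fell in KO from 209 ± 5.66 CPM (n = 3) in WT to 143 ± 4.33 (n = 4), with -0.57 ± 0.11 (adjusted p = 0.000964) beside a chromosome 11 median of -0.34. KO against KI was -0.24 ± 0.077 (adjusted p = 0.0143), no larger in size than the chromosome 11 median of -0.27. KI against WT was -0.30 ± 0.12 (adjusted p = 0.065), not called, although leaving out WT 8 (-0.29, adjusted p = 0.0424), the DESeq2 Wald test (-0.33, adjusted p = 0.0111) and a fit of all 3 groups (-0.30, adjusted p = 0.0175) called it. With library totals both KO calls were lost (-0.16, adjusted p = 0.296 against WT and -0.18, adjusted p = 0.0558 against KI).

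Slc38a6 was lower in KO, at 8.58 to 12.6 CPM, than in WT, at 14.2 to 19.0, and in KI, at 13.7 to 18.4. The log2 fold changes were -0.60 ± 0.18 (adjusted p = 0.0141) and -0.51 ± 0.14 (adjusted p = 0.00806), the median of its chromosome 12 being -0.35 and -0.42. The call against WT was lost without WT 7 (-0.45, adjusted p = 0.0847) and with library totals (-0.19, adjusted p = 0.403), and KI against WT was -0.073 ± 0.17 (adjusted p = 0.756).

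Slc38a7, which encodes a lysosomal glutamine carrier, was highest in KI, at 25.6 to 31.4 CPM against 19.0 to 22.1 in WT and 20.1 to 24.5 in KO. KI against WT was 0.48 ± 0.14 (adjusted p = 0.0163) and KO against KI -0.37 ± 0.11 (adjusted p = 0.009), beside a chromosome 8 median of 0.20 and -0.27. The KI call against WT was lost without WT 7 (0.43, adjusted p = 0.0717) and without KI 7 (0.43, adjusted p = 0.0553). KO against WT was 0.087 ± 0.13 (adjusted p = 0.606), or 0.49 with library totals (adjusted p = 0.0312).

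Slc38a3, which encodes SNAT3, the glutamine carrier of liver cells, was low, at 1.04 to 4.21 CPM in KO, 3.61 to 5.33 in WT and 2.65 to 4.81 in KI, and was called in no comparison. Without KO 5, the highest KO library at 4.21 CPM, KO was called against WT (-1.29, adjusted p = 0.011) and against KI (-0.89, adjusted p = 0.0332). KO against WT was also called on log2(CPM + 1) with limma (-0.73, adjusted p = 0.0418) and with the replicate number as a block (-1.03, adjusted p = 0.0177). Slc38a9, a lysosomal arginine sensor, was at 8.88 to 11.1 CPM in KO, 9.42 to 14.0 in WT and 9.43 to 13.0 in KI, with no call. Without WT 8, its KO against WT difference was called (-0.41, adjusted p = 0.0403).

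Slc43a2 (chr11:75529915-75577575), the only detected SLC43 gene, encodes LAT4, which lets branched-chain amino acids, phenylalanine and methionine leave cells. It stood at 31.5, 32.1, 33.3 and 43.4 CPM in KO, 10.7, 12.9 and 21.0 in WT and 17.7, 15.3, 18.0 and 19.7 in KI. KO was above all other libraries, and WT and KI overlapped. The log2 fold changes were 1.21 ± 0.22 (adjusted p = 0.000917) in KO against WT, 0.99 ± 0.12 (adjusted p = 8.67e-06) in KO against KI and 0.24 ± 0.21 (adjusted p = 0.372) in KI against WT. Without WT 8, the highest WT library, KI against WT was called (0.58, adjusted p = 0.0115).

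**Figure D3:**
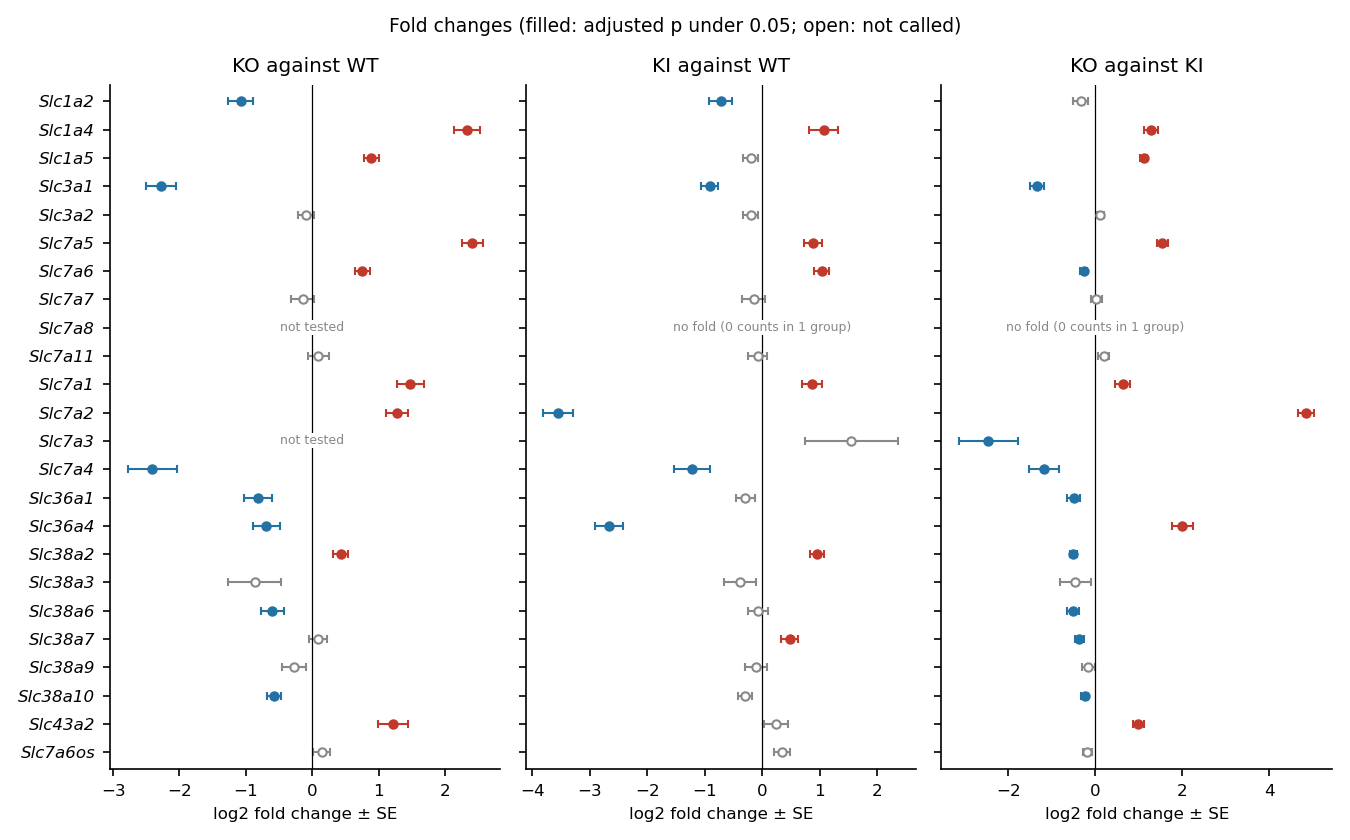
Log2 fold changes (points) with standard errors (bars) of the detected genes in the 3 comparisons, filled where called (red higher, blue lower in the first group named) and open grey where not. No fold is drawn for Slc7a8, at 0 in KO and WT. Slc7a3 was tested through its KI counts alone, so its points in KI against WT and KO against KI are not read as results. It was not tested in KO against WT, where Slc7a5 and Slc7a4 have the largest rise and fall at 2.41 and -2.41.

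Slc7a6os, next to Slc7a6 on chromosome 8, was at 22.0 to 24.3 CPM in KO, 19.9 to 22.1 in WT and 24.6 to 29.4 in KI, with no call. Scaled by library totals it was called higher than WT in KO (0.56, adjusted p = 0.00646) and in KI (0.67, adjusted p = 0.00496), and a fit of all 3 groups called KI against WT (0.34, adjusted p = 0.0231).

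The 19 genes not detected had at most 8 counts in any library, and 10 of them had 0 in all. They include liver carriers by background knowledge: Slc38a4, which encodes SNAT4, was at 0, and Slc43a1, which encodes LAT3, reached 8 counts. The glutamate carriers Slc1a1, Slc1a3, Slc1a6 and Slc1a7 reached at most 4 counts. In SLC7, Slc7a9, Slc7a10, Slc7a12, Slc7a13, Slc7a14 and Slc7a15 reached at most 7. The rest were Slc36a2, Slc36a3, Slc38a1, Slc38a5, Slc38a8, Slc38a11 and Slc43a3. Expression of these genes was not detectable at this depth.

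By CPM per kilobase of exon, a scale for a rough comparison of genes, the order of the carriers shifted between the lines. The length joins the exons of all annotated transcripts of a gene. Genes with many or long transcripts may therefore rank too low, here and in the shares given above. In WT, Slc3a2 (72.7 ± 6.61) and Slc3a1 (61.1 ± 12.6) led without differing beyond their spread, followed by Slc38a10 (32.6 ± 0.882) and Slc38a2 (14.5 ± 0.936). In KI, Slc3a2 (63.4 ± 2.32) led Slc3a1 (32.4 ± 1.28), Slc38a2 (28.2 ± 1.52) and Slc38a10 (26.4 ± 1.46), the last pair within their spread. In KO, Slc3a2 (68.7 ± 4.18) was followed by Slc38a10 (22.3 ± 0.675), Slc7a5 (21.9 ± 3.50) and Slc38a2 (19.9 ± 1.14), where the spread of Slc7a5 covered both neighbours. Slc3a1 stood at rank 7 with 12.8 ± 3.71. Slc7a5 had rank 10 in WT and rank 6 in KI. Slc7a2 went from rank 8 in KO and 12 in WT to rank 22 of 24 in KI.

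Variation within a line differed between genes. Over genes of at least 1 CPM, the coefficient of variation had a median of 9.77% in KO (3.03% to 57.0%, 21 genes), 14.7% in WT (2.71% to 44.7%, 22 genes) and 12.6% in KI (3.66% to 40.2%, 23 genes). Members were spread over chromosomes whose median log2 fold change over all genes ranged from -0.35 to 0.52 in KO against WT, which the single-gene values above do not take off.

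Genes around the carriers were described from fixed lists, chosen with earlier results of these data known. The GCN2-ATF4 list holds GCN2 (Eif2ak4), the related kinases Eif2ak1, Eif2ak2 and Eif2ak3, transcription factors and targets. The related kinases answer other stresses, so the list is not specific to amino acid shortage. In it, 10 of 17 were called higher and 2 lower in KO against WT, beside 26.7% and 28.4% of all genes. In KO against KI 13 were higher and 1 lower, beside 27.0% each. In KI against WT 3 were higher and 3 lower, beside 21.2% and 21.0%. Median log2 fold changes in KO against WT, KO against KI and KI against WT were 0.46, 0.49 and -0.11, beside the medians over all genes given above. With library totals the KI against WT median was 0.24. In KO against WT library totals gave 14 higher and 0 lower with a median of 0.85. Leaving out single libraries moved the KI against WT calls between 3 (without KI 5 or WT 7) and 7 (without WT 8). Atf4 itself was not called in KO against WT (0.32 ± 0.13, adjusted p = 0.0547) or in KI against WT (-0.096 ± 0.14, adjusted p = 0.614). It was higher in KO than in KI (0.44 ± 0.091, adjusted p = 0.000719). Atf5, a transcription factor, was at 270.0 to 338 CPM in KO, 24.9 to 30.4 in WT and 46.9 to 59.8 in KI, with 3.43 ± 0.14 (adjusted p = 6.18e-08) in KO against WT, 2.53 ± 0.10 (adjusted p = 3.61e-11) in KO against KI and 0.92 ± 0.14 (adjusted p = 0.000274) in KI against WT. Trib3, a pseudokinase target of ATF4, was at 55.6 to 62.6 CPM in KO, 13.2 to 17.8 in WT and 5.09 to 8.68 in KI, and so rose in KO (1.94 ± 0.15, adjusted p = 2.2e-06) and fell in KI (-1.12 ± 0.20, adjusted p = 0.000939).

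Chac1, which degrades glutathione, stood at 13.6 to 16.8 CPM in KO, 2.76 to 4.56 in WT and 2.43 to 3.42 in KI, with 1.97 ± 0.21 (adjusted p = 2.16e-05) in KO against WT. Asns, asparagine synthetase, was at 143 to 157, 36.9 to 40.7 and 44.6 to 67.5 CPM, with 0.59 ± 0.16 (adjusted p = 0.00937) in KI against WT and 1.35 ± 0.11 (adjusted p = 1.15e-07) in KO against KI. Nupr1, a stress-induced regulator, rose in KO against WT by 1.99 ± 0.25 (adjusted p = 7.34e-05) on the log2 scale. Atf3 was lower in KI than in WT at -0.49 ± 0.18 (adjusted p = 0.0428), a call lost without WT 7 (-0.31, adjusted p = 0.228) and without any other single library but WT 8 (adjusted p = 0.0546 to 0.112). The call was also lost with library totals (-0.15, adjusted p = 0.519), with limma (adjusted p = 0.0514), with no filter on low counts (adjusted p = 0.0502) and with the replicate number as a block (adjusted p = 0.0897).

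The C/EBP-ATF response element, spelled here as TGATGNAA and searched on both strands (TTNCATCA on the other), was looked up in RefSeq promoter windows of 300 bases, 250 before to 50 after each listed transcript start (GRCm38.p6). Of all 32851 windows 1304 hold it (3.97%), and 4 of 25 windows of the 18 detected members with a window do (16%), in 3 genes. Of the 4, 2 are overlapping windows of Slc7a7 that share a match, so they hold 1 motif position in Slc1a4, 2 in Slc7a11 and 2 in Slc7a7. The stretches are shown because they come from members with unlike behaviour: Slc1a4 was called in all 3 comparisons, and Slc7a11 and Slc7a7 in none. Capitals mark the motif, and all run 5′ to 3′ along the gene on the minus strand.
Slc7a11, chr3:50443623-50443709: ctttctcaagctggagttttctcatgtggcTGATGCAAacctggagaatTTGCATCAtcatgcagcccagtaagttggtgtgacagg
Slc1a4, chr11:20332710-20332747: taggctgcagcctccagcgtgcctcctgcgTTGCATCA
Slc7a7, chr14:54418048-54418115: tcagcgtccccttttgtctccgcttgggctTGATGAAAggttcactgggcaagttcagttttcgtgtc
Slc7a7, chr14:54417938-54417975: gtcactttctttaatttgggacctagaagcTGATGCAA
Slc7a11 has the motif on each strand, starting 66 and 47 bases before a transcript start at 50443613, which lies 55474 bases inside the gene range given above. In Slc1a4 it starts 4 bases before the gene start at 20332713. In Slc7a7 the matches start 141 bases and 1 base before a transcript start at 54417944, which lies 2124 bases inside the gene range, and the nearer match is also 243 bases before another start at 54417702. A match describes letters in a window and not a bound site, and the windows of Slc7a1 and Slc38a2 did not hold these letters. Detected members other than the 18 with a window were not searched, so nothing is known here of the motif in them.

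The list of amino acid sensing to the kinase mTORC1 holds sensors, proteins that relay their signal and Mtor itself. In it, 13 of 31 were called higher and 8 lower in KO against WT (67.7% called, beside 55.1% of all genes). In KI against WT 6 were higher and 4 lower (32.3%, beside 42.3%), and in KO against KI 9 higher and 5 lower (45.2%, beside 54.0%). The shares called in the last pair of comparisons were under those of all genes. Medians were 0.17, 0.14 and -0.093, and in KO against WT library totals gave 17 higher and 4 lower with a median of 0.59. The KI against WT calls were 6 without WT 7 and 16 without WT 8, and with library totals 13 were higher and 2 lower with a median of 0.44. Rragd, a GTPase of this pathway, was nearly absent from KO, at 0.120 to 0.444 CPM against 7.95 to 11.8 in WT and 6.82 to 9.67 in KI (-5.11 ± 0.33, adjusted p = 8.74e-07 and -4.79 ± 0.29, adjusted p = 2.89e-09). Castor1, an arginine sensor, was at 1.35 to 1.82 CPM in KO, 3.74 to 6.62 in WT and 1.49 to 1.85 in KI, and fell in KO (-1.75 ± 0.27, adjusted p = 0.000257) and KI (-1.63 ± 0.26, adjusted p = 0.0004). Fnip1, a partner of folliculin, fell in both (-1.12 ± 0.15, adjusted p = 0.000122 in KO and -0.96 ± 0.19, adjusted p = 0.00147 in KI). Sec13, a subunit of the GATOR2 complex, rose in both (1.08 ± 0.16, adjusted p = 0.000184 and 0.93 ± 0.17, adjusted p = 0.000999), and Lamtor3 rose in KI (1.04 ± 0.18, adjusted p = 0.000563). Sesn2, a leucine sensor, and Kptn were higher in KO than in KI (1.19 ± 0.15, adjusted p = 1.27e-05 and 0.81 ± 0.13, adjusted p = 0.000102), and Sesn3 was lower (-0.76 ± 0.13, adjusted p = 0.000173).

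Among other amino acid carriers, 9 of 16 tested were called higher and 3 lower in KO against WT (75% called, beside 55.1% of all genes). In KI against WT 4 of 19 were higher and 2 lower (31.6%, beside 42.3%), and in KO against KI 8 of 18 were higher and 4 lower (66.7%, beside 54.0%). Medians were 0.73, 0.15 and 0.22. Leaving out the genes under 10 counts in every library of one of the groups compared, 9 of 15, 3 of 16 and 8 of 16 were higher and 2 lower in each. Library totals gave 10 higher and 1 lower in KO against WT with a median of 1.12, and 7 higher and 2 lower in KI against WT with a median of 0.46. With no filter on low counts the medians were 0.21 in KO against WT and -0.014 in KO against KI. The KI against WT median was 0.32 without WT 8, 0.096 without WT 7 and 0.065 without KI 7, and the KO against KI median was 0.094 to 0.13 without KI 5 or any 1 KO library. Slc16a10, the aromatic amino acid carrier TAT1, stood at 53.9 to 68.0 CPM in KO, 8.87 to 11.6 in WT and 9.73 to 12.9 in KI (2.62 ± 0.16, adjusted p = 4.52e-07 and 2.50 ± 0.12, adjusted p = 1.97e-10 in KO against WT and KI). Slc6a9, the glycine carrier GLYT1, stood at 14.9 to 23.5 CPM in KO, 4.20 to 5.13 in WT and 4.08 to 5.99 in KI (1.98 ± 0.19, adjusted p = 1.32e-05 and 1.85 ± 0.17, adjusted p = 3.52e-07). Slc25a22, a mitochondrial glutamate carrier, rose in KO (1.92 ± 0.18, adjusted p = 1.15e-05) and in KI (0.98 ± 0.17, adjusted p = 0.000552) against WT.

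Low carriers of that list differed too. Slc6a18 was at 0 in all KO and WT libraries and at 0.414 to 1.40 CPM in KI, so that, like Slc7a8, it had counts in KI only. Slc6a19, the neutral amino acid carrier B0AT1, was at 0.142 to 0.928 CPM in WT and 1.78 to 3.33 in KI (2.45 ± 0.53, adjusted p = 0.00296). Slc6a20a, a proline carrier, was at 0 to 0.210 CPM in KO, 1.38 to 1.65 in WT and 0.252 to 0.732 in KI. It was lower in KI than in WT (-1.70 ± 0.48, adjusted p = 0.0133), a call lost without WT 7 (-1.62, adjusted p = 0.0565) and in a fit of all 3 groups (-1.71, adjusted p = 0.0804). Slc15a2, a peptide carrier, was at 0 to 0.0841 CPM in KO and 0.303 to 0.967 in KI. For Slc6a18, Slc15a2 and, in KO against WT, Slc6a20a, one of the groups was under 10 counts in every library, so no test is given.

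Of 10 partners and trafficking genes 8 were tested, with 2 higher and 4 lower in KO against WT (75% called, beside 55.1% of all genes), 0 higher and 3 lower in KI against WT (37.5%, beside 42.3%), and 2 higher and 5 lower in KO against KI (87.5%, beside 54.0%). Medians were -0.34, 0.044 and -0.44. In KO against WT 1 was higher without any single library other than WT 8. The KI against WT median was -0.070 without WT 8 and -0.0012 without WT 7, and with library totals 2 were higher and 1 lower there with a median of 0.39. Praf2, an endoplasmic reticulum protein, was at 0.420 to 0.977 CPM in KO, 31.0 to 34.6 in WT and 22.1 to 24.9 in KI (-5.51 ± 0.26, adjusted p = 1.09e-07 in KO against WT, -5.01 ± 0.21, adjusted p = 8.12e-11 in KO against KI and -0.49 ± 0.13, adjusted p = 0.00942 in KI against WT). Bsg and Itgb1, membrane partners of the CD98 heavy chain, fell in KO against WT (-1.27 ± 0.14, adjusted p = 3.62e-05 and -1.24 ± 0.17, adjusted p = 0.000157) and were lower in KO than in KI (-0.62 ± 0.10, adjusted p = 0.000112 and -1.22 ± 0.10, adjusted p = 9.69e-08). Bsg also fell in KI against WT (-0.62 ± 0.16, adjusted p = 0.00766). Nedd4l, a ubiquitin ligase, was lower in KI than in WT (-1.02 ± 0.17, adjusted p = 0.000455) and higher in KO than in KI (1.11 ± 0.12, adjusted p = 1.64e-06), and Laptm4b, a lysosomal partner of the LAT1 complex, fell in KO against WT (-0.57 ± 0.15, adjusted p = 0.00743). With library totals, Laptm4b in KO (-0.15, adjusted p = 0.388) and Bsg (-0.29, adjusted p = 0.149) and Praf2 (-0.17, adjusted p = 0.413) in KI were no longer called against WT, and the list's median turned to 0.060 in KO against WT.

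**Figure D4:**
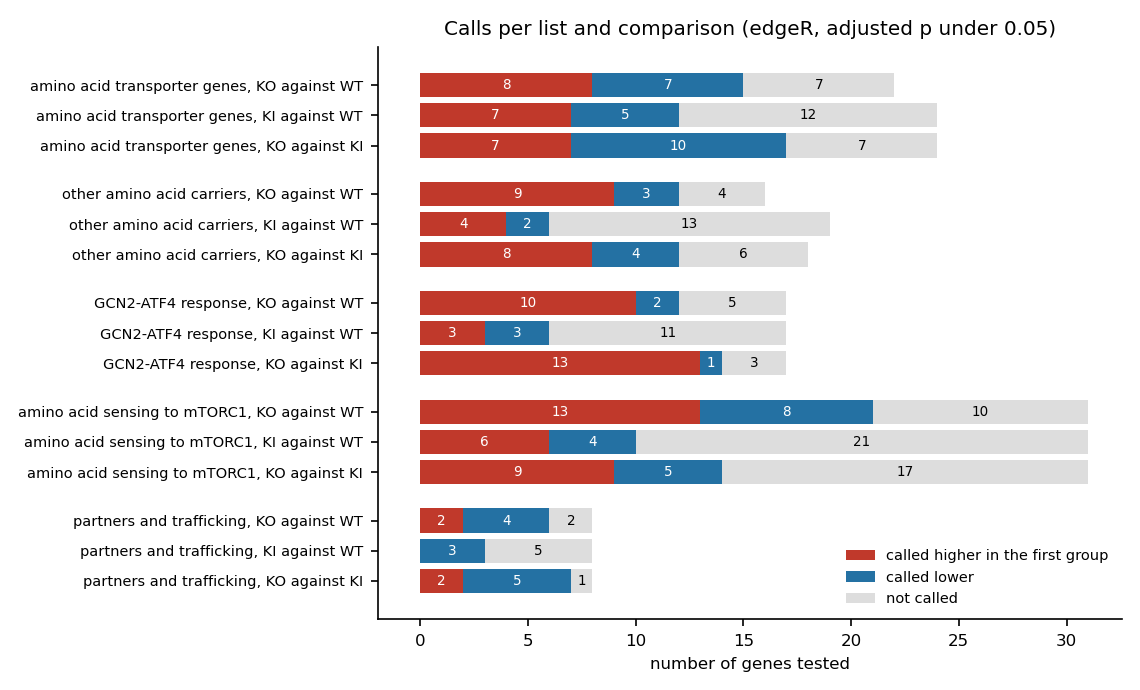
Number of genes tested in each list and comparison (bar length), split into called higher in the first group named (red), called lower (blue) and not called (grey) by edgeR at an adjusted p under 0.05. The GCN2-ATF4 list has 13 of 17 genes higher and 1 lower in KO against KI, beside 27.0% and 27.0% of all genes, and 3 higher and 3 lower in KI against WT, beside 21.2% and 21.0%.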

How the data were processed

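Polyadenylated RNA of 4 KO, 3 WT and 4 KI libraries of AML12 cells was sequenced by a provider, BGI Genomics, which cleaned, mapped and counted the reads. The authors deposited whole-number read counts per gene, without normalization, and these counts were the unit used. The submitters' processing notes name HISAT2, TopHat2, Bowtie2 and StringTie with no role, and the genome build is not given in the sources used here. Reads that a newly assembled entry shares with an annotated gene may be counted under either.

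Of 26472 lines 10 with broken fields were left out, and counts were summed by gene name. Another 11 columns of FPKM, with lost decimals, and the columns of the authors' own comparisons (fold changes, adjusted p-values and calls) were not used. Groups follow the sample labels. Each comparison used its 2 groups in edgeR 4.0.16 (R 4.3.3): low-count filter, TMM, quasi-likelihood test with robust dispersion, prior count 2, Benjamini-Hochberg over all genes, called under 0.05. The test was tried on simulated counts in which a small share of genes changed, as many up as down. A case where most genes change was not simulated. Levels are CPM on 1 TMM scale of 11 libraries, and exon lengths come from GENCODE M21 on GRCm38, which need not be the authors' annotation. Alternatives used DESeq2 1.42.0, limma 3.58.1 on log2(CPM + 1), other scalings, filters, entries and left-out libraries. Libraries of a group differed by more than sampling noise (chi-square per degree of freedom 16.5 to 159). Deviations of same-numbered libraries from their group means correlated at -0.19 to 0.21 over 12 pairs, against -0.20 to 0.17 for 28 others. Between KO and WT, the same-numbered pairs KO 5 with WT 5-6 (0.16) and KO 8 with WT 8 (0.21) were highest. The crossed pairs KO 5 with WT 8 (-0.20) and KO 8 with WT 5-6 (-0.18) were lowest. A pairing by number is not stated, so the main test was not paired and the replicate block was an alternative.

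Members and lists were chosen with earlier results of these data known. Values in every library are given for members called with an absolute log2 fold change of at least 1 in any comparison and for Slc3a2, Slc7a5, Slc7a11, Slc1a5 and Slc38a2, and at most 4 genes of each other list were named per comparison, those with the largest called change among groups that do not overlap. Atf4 was named besides, since its list carries its name. Tables were handled in Python 3.11.15 with pandas 2.3.3, and plots were drawn with matplotlib 3.10.9.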

Additional observations from a re-analysis of the deposited data

Results flagged for a closer look

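A library far from the others of its group (Dixon's 95% limit for groups of 4) was found in 4 of 48 gene and group combinations, where chance gives 2.4. Slc7a3 in KO 6 had a gap of 1 of the range, at 0.148 CPM against 0 in the other KO libraries, and rests on 5 counts. Slc7a6 in KI 8 had a gap of 0.884 of the range, at 66.2 CPM against 77.3 to 78.8. Slc38a3 in KI 7 had a gap of 0.943, at 4.81 CPM against 2.65 to 2.77. Slc43a2 in KO 8 had a gap of 0.843, at 43.4 CPM against 31.5 to 33.3.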

How the results depend on the processing

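The number of called genes among the members stayed within 1.5 times the main count under all alternatives run: 13 to 16 of 15 in KO against WT, 11 to 14 of 12 in KI against WT and 15 to 18 of 17 in KO against KI. With the replicate block the counts were 16, 12 and 17. Whether the numbers pair the libraries is not stated. Over all genes the block gave 8183 calls in place of 7364 in KO against WT. It gave 4891 in place of 5722 in KI against WT and 6453 in place of 7171 in KO against KI. Scaling by library totals moved the median over all genes to 0.38, 0.30 and 0.063 on the log2 scale, and turned the sign of members that were not called. In KO against WT these were Slc3a2 (0.30), Slc7a7 (0.24) and Slc38a9 (0.15). In KI against WT they were Slc1a5 (0.13), Slc3a2 (0.12), Slc7a7 (0.15), Slc7a11 (0.25), Slc36a1 (0.0081), Slc38a6 (0.26), Slc38a9 (0.25) and Slc38a10 (0.020). Leaving out single libraries gave ranges across 0 in KO against WT for Slc3a2 (-0.14 to 0.0055) and Slc7a7 (-0.25 to 0.10), in KI against WT for Slc7a7 (-0.27 to 0.070), Slc7a11 (-0.14 to 0.040), Slc38a6 (-0.17 to 0.057) and Slc38a9 (-0.26 to 0.00018), and in KO against KI for Slc7a7 (-0.045 to 0.091). None of these was called in the main test. The cause was not tested. Lost calls are given beside each gene above. The fitted folds of Slc7a8, at 0 in 2 lines, depend on the method. Low genes such as Slc7a3 (at most 26 counts) are limited by depth.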
